A study of Mus musculus with 24 samples.

Results

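Knockdown of *Smarca4* in differentiating male C57/Bl6 mouse embryonic stem cells (mESCs) was done with a pair of hairpins, Smarca4.4 and Smarca4.6, and the libraries of both were compared with each other. The members are the 8 RNA-seq libraries whose titles name either hairpin, 4 of Smarca4.4 and 4 of Smarca4.6, out of 20 libraries used and 24 in the series. They were paired by day of differentiation, with 1 library per hairpin on each of days 4, 5, 6 and 7. Cells were expanded in 2i, weaned into DME HiHi medium to start differentiation, transduced with retroviral short hairpin RNA (shRNA) on day 2 and selected with puromycin from day 3. The other 12 libraries carry a nonsilencing hairpin (Nons, 4 libraries) or a hairpin against *Smarcc1* (Smarcc1.6 and Smarcc1.7, 4 libraries each), came from the same male strain and days, and serve as reference. The 4 libraries of a second Nons series were not analysed here. By their genotype entry the 8 members would be Smarcc knockdowns, but their titles name *Smarca4* and were followed. The levels of *Smarca4* given below are those of the titles. There is 1 library per hairpin and day, and the labels do not say which libraries share a culture or a transduction. The hairpin and the cultures that carried it therefore cannot be told apart, and every *p* below measures only how steady a difference was over days.

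*Smarca4* (also called *Brg1*) encodes an ATPase of the BAF complex, the mammalian SWI/SNF chromatin remodeller, which uses ATP to slide or evict nucleosomes. *Smarca2* encodes the alternative ATPase and *Smarcc1* a scaffold subunit (BAF155), and mESCs assemble a form of the complex built around Smarca4 and Smarcc1. An shRNA is cut by Drosha and Dicer to a guide strand that leads an Argonaute protein to RNA with a matching sequence. A perfect match leads to cleavage of the target, whereas matches of the seed alone, bases 2 to 8 of the guide, can lower other transcripts. Hairpins against 1 gene share their target but not their seed, and genes that differ between them are therefore of interest for judging either.

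The hairpins are told apart by their sequence and by where they meet the *Smarca4* transcript, which is why both are shown. The guide strands, as DNA letters with the seed in capitals, were as follows.
Smarca4.4 guide: tTTATTACtgtctgactccagt
Smarca4.6 guide: tTGCATAAtagtgttcatcagt
Both guides are 22 bases long and pair with 21 of the 22 bases of the opposite strand of their own hairpin. Their sites in the *Smarca4* transcript, on the plus strand of mm10 and with the bases that face the seed in capitals, were these.
Smarca4.4 site: actggagtcagacaGTAATAAa
Smarca4.6 site: actgatgaacactaTTATGCAa
The Smarca4.4 site lies in the 3′ UTR within exon 34 of 34, at chr9:21703327-21703348, and begins 358 bases after the stop codon. It is present in 3 of the 4 *Smarca4* transcripts of GENCODE M21. The Smarca4.6 site lies in coding exon 22 of 34, at chr9:21670504-21670525, begins in codon 1034 of 1617 and is present in 4 of 4 transcripts. The guide of Nons has its match in 0 of the 4.

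Whole reads could be recovered from the deposited log2 values, which are reads scaled to the depth of each library (rpm). The Smarca4.4 libraries held 23428081 reads on day 4, 6829596 on day 5, 17369407 on day 6 and 21860309 on day 7. The Smarca4.6 libraries held 18206371, 23551166, 15740712 and 16874454 reads on the same days. The Smarca4.4 library of day 5 was therefore the smallest of the 8, and 1 read in it was worth 0.146 rpm, against 0.0425 rpm in Smarca4.6 of the same day. It also had 9660 entries without a read, more than the 8122 to 8817 of the other 7 libraries, so the count of genes, the list medians, distance and stage are given with and without day 5 where it moves them. The hairpin libraries of a day were not copies of each other, with a chi-square per gene of 12.5, 45.0, 63.1 and 15.2 on days 4 to 7, a measure set against counting error only. Libraries also differed in how long and short transcripts were represented. The median log2 rpm of the 1303 longest minus that of the 1303 shortest transcripts was 1.49, 1.22, 1.30 and 1.36 in Smarca4.4 on days 4 to 7. In Smarca4.6 it was 1.25, -0.04, 0.46 and 1.74, and in Nons it was 1.34, 0.84, 0.41 and 1.36. Long transcripts thus stood lower against short ones, in rpm, in Smarca4.6 than in Smarca4.4 on days 5 and 6. Nons of day 6 was like Smarca4.6 in this respect.

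*Smarca4* itself (chr9:21616169-21704230 in mm10) stood below the Nons library of the same day in each of the 8, in the direction the titles give. Nons held 222, 151, 90.4 and 160 rpm on days 4 to 7. Smarca4.4 held 56.0, 49.5, 50 and 42.2 rpm on the same days, and Smarca4.6 held 62.9, 36.3, 19.5 and 43.6 rpm. Residual *Smarca4* in Smarca4.4 was 25.2%, 32.8%, 55.3% and 26.3% of Nons, and in Smarca4.6 it was 28.3%, 24.1%, 21.6% and 27.2%. The hairpins thus lay close on days 4 and 7 (Smarca4.6 at 112% and 103% of Smarca4.4) and apart on day 5 (73.4%) and day 6 (39.0%). The lowest read counts behind these values were 338 in Smarca4.4 of day 5 and 307 in Smarca4.6 of day 6. Averaged over days the log2 difference, Smarca4.6 minus Smarca4.4, was -0.40 (SE 0.23, n = 4 days, adjusted *p* = 0.618 in limma). Without day 5 it was -0.38, and without day 6, which decides it, -0.08.

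**Figure D1:**
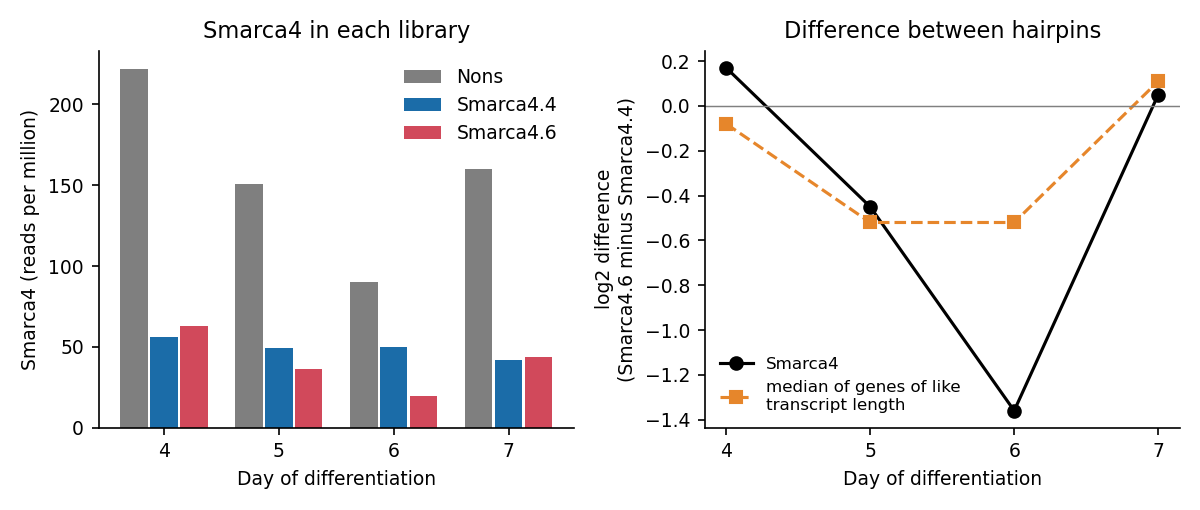
*Smarca4* in the 3 kinds of library by day. Left, rpm on the y axis for Nons, Smarca4.4 and Smarca4.6, 1 library per bar; the day 6 bars stand at 90.4, 50 and 19.5 rpm. Right, the log2 difference Smarca4.6 minus Smarca4.4 for *Smarca4* (circles) and the median of the 651 genes in its class of transcript length (squares); both are below 0 on days 5 and 6 and part on day 6, at -1.36 and -0.52.

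The *Smarca4* transcript is long, 6376 nucleotides in its longest form, so its differences were set beside those of the 651 genes tested with transcripts of 5813 to 6729 nucleotides. The median log2 difference of these genes was -0.08, -0.52, -0.52 and 0.11 on days 4 to 7, against 0.17, -0.45, -1.36 and 0.05 for *Smarca4*. On day 4 *Smarca4* lay 0.24 above this median, with 575 of the 651 genes (88.5%) lower. On day 5 it lay 0.08 above it, with 364 of the 651 genes lower. On day 6 it lay 0.84 below it, with 46 of the 651 genes (7.08%) lower still. When the median of genes of like length was taken out of each comparison with Nons, residual *Smarca4* in Smarca4.4 was 23.7%, 27.6%, 38.7% and 25.4%, and in Smarca4.6 it was 27.9%, 28.0%, 21.5% and 24.4%. The hairpins were then close on days 4, 5 and 7, and Smarca4.4 was the higher on day 6. This adjustment was chosen after seeing the data.

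The other ATPase and the scaffold missed the threshold as well. *Smarca2* (chr19:26605115-26778321), which overlaps 2 antisense entries and is uncertain for that reason, was scarce at 4.78, 10.1, 6.91 and 2.24 rpm in Smarca4.4 and at 4.12, 7.52, 4.96 and 3.32 rpm in Smarca4.6. Its mean log2 difference was -0.14 (SE 0.24, adjusted *p* = 0.862 in limma) and -0.04 without day 5, and it turned positive, 0.10 to 0.12, when libraries were thinned to equal depth or transcript length was taken out. *Smarcc1* (chr9:110132037-110240178) held 498, 326, 242 and 184 rpm in Smarca4.4 and 449, 210, 149 and 209 rpm in Smarca4.6, a mean log2 difference of -0.32 (SE 0.17, adjusted *p* = 0.615). It was -0.20 without day 6, -0.49 without day 7 and -0.12 with transcript length taken out. It too was lower in Smarca4.6 on days 5 and 6, at -0.22 and -0.28 from the median of the genes of its own length class. Of 28 BAF subunit genes, 25 passed the filter on low values and 0 passed the threshold. Their median difference was -0.13, against -0.05 over all genes tested, and -0.04 with transcript length taken out. On day 6, 20 of the 25 were lower in Smarca4.6, where 8296 of 13260 genes tested were, and 6 of them at least 2-fold (9.91% of genes tested). With length taken out their median of that day was -0.15. The largest differences of 1 direction on all days were in *Gltscr1*, a subunit of the non-canonical BAF complex, and *Arid1b*, a DNA-binding subunit of canonical BAF. *Gltscr1* held 6.05 rpm in Smarca4.4 and 1.46 rpm in Smarca4.6 on day 6, and *Arid1b* 32.9 and 13.4 rpm. On day 7 they were level, at 4.44 against 4.39 rpm and 28.1 against 27.6 rpm. Their mean log2 differences were -0.70 and -0.50, and -0.24 and -0.23 without day 6. With transcript length taken out the means were -0.44 and -0.14, and the single direction was lost, with *Gltscr1* at 0.19 on day 5 and *Arid1b* at 0.10 and 0.21 on days 4 and 5.

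Across the 13260 genes tested, no gene separated the hairpins on all days strongly enough to pass. In limma with day as a block, 0 genes (0%) reached an adjusted *p* under 0.05, with 1032 at an unadjusted *p* under 0.05, of which 326 were higher and 706 lower in Smarca4.6. After centring each library on its median gene this split was 610 and 585, and after quantile normalization 535 and 593, so it depends on the scaling. Limma-voom on the whole reads also gave 0, with 968 at an unadjusted *p* under 0.05. Without day 5 the count in limma was 0 (0%), with 588 at an unadjusted *p* under 0.05. With no filter on low values 136 of 25965 entries passed. In that fit limma took the spread from all entries together, not from the days of each gene, so the 136 cannot be set beside the other counts. The differences within single days were much larger than this steady part. On day 4, 91 genes were at least 2-fold higher (0.686% of those tested) and 53 at least 2-fold lower (0.4%) in Smarca4.6. On day 5 these were 423 (3.19%) and 911 (6.87%), on day 6 132 (0.995%) and 1314 (9.91%), and on day 7 79 (0.596%) and 80 (0.603%). Days 5 and 6 thus held 1334 and 1446 genes past 2-fold, and days 4 and 7 held 144 and 159. With 1 library per hairpin and day these counts have no test. Among 9026 genes with a mean log2 value equal to 10 rpm or more, 7, 586, 745 and 11 were past 2-fold on days 4 to 7, so nearly all of those of days 4 and 7 were scarcer genes, and those of days 5 and 6 were not all scarce. With 1 added to rpm, which compresses low values, the counts over all genes tested were 13, 798, 930 and 17. With all libraries thinned to equal depth they were 494, 1519, 1737 and 393, so the contrast between days was smaller.

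The genes past 2-fold on days 5 and 6 were shared in part. Of those lower in Smarca4.6, 183 were shared, 20.1% of the 911 of day 5, where 9.91% of all genes tested were lower on day 6, and 13.9% of the 1314 of day 6, where 6.87% were lower on day 5. Of those higher, 26 were shared, 6.15% of the 423 of day 5 and 19.7% of the 132 of day 6, where 0.995% and 3.19% of all genes tested were higher on the other day. Of the 423 genes higher on day 5, 24 were past 2-fold in the other direction on day 6, a smaller share than the 9.91% of all genes tested, and of the 911 lower on day 5, 4 were. Genes lower on day 6 and on day 7 shared 20, 25.0% of the 80 of day 7. The Smarcc1 hairpins were compared in the same way, as a pair in which *Smarca4* was not targeted. *Smarca4* nevertheless held 258, 90.8, 96.7 and 195 rpm in Smarcc1.6 and 249, 236, 202 and 199 rpm in Smarcc1.7, so it was level on days 4 and 7 and apart on days 5 and 6 in this pair too. Between Smarcc1.7 and Smarcc1.6, 127, 2300, 1640 and 81 genes were past 2-fold on days 4 to 7. Days 5 and 6 were thus the days of large differences in that pair too, with 2003 of the 2300 and 1475 of the 1640 genes higher in Smarcc1.7.

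**Figure D2:**
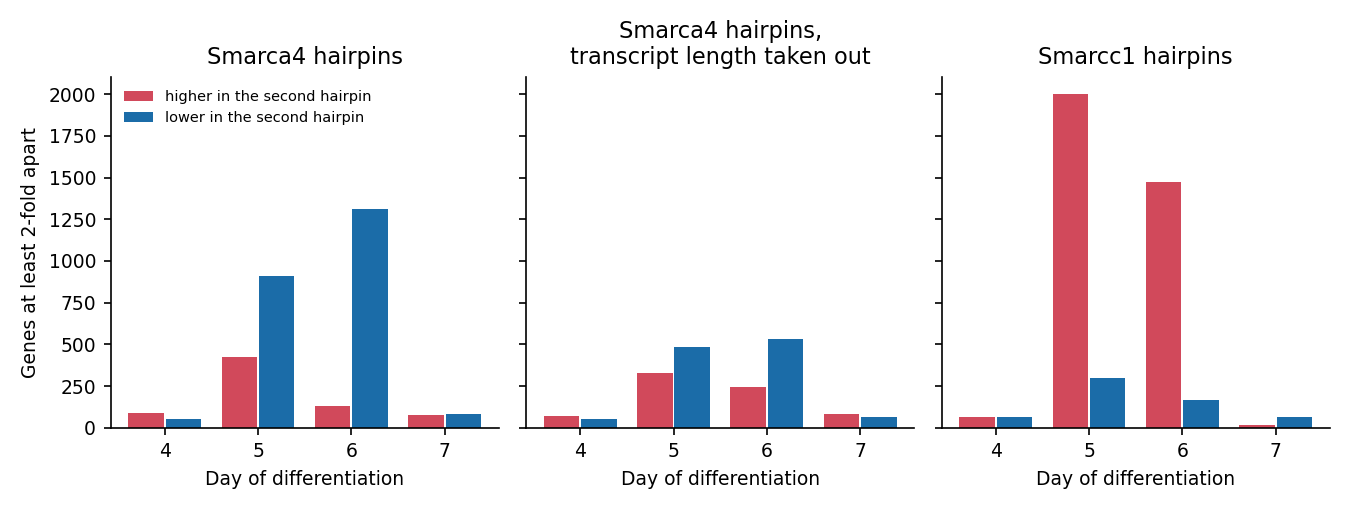
Genes at least 2-fold apart between the hairpins of a pair on each day, among the 13260 tested (13023 with a known transcript length in the middle panel), 1 library per hairpin and day. Red bars count genes higher and blue bars genes lower in Smarca4.6 than in Smarca4.4 (left and middle) or in Smarcc1.7 than in Smarcc1.6 (right). The Smarca4 counts of day 6 are 132 and 1314 on the left and 245 and 532 in the middle, where each day is also centred (352 and 614 with centring alone), and the Smarcc1 pair has its large counts on the same days, 5 and 6.

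The differences between the Smarca4 hairpins ran with transcript length. Lengths were known for 13023 of the genes tested (98.2%), which were put in 20 classes of 651 or 652 genes. On day 5 the median log2 difference went from 0.54 in the class of shortest transcripts (136 to 933 nucleotides) to -0.83 in the class of longest (8233 nucleotides and more). On day 6 it went from 0.17 to -0.68, on day 4 from 0.14 to -0.15, and on day 7 it had the opposite slope, from -0.08 to 0.22. Across genes, which are not independent replicates, the correlation of the difference with log2 length was -0.27, -0.48, -0.38 and 0.24 on days 4 to 7. In the longest class, 262 of 652 genes were at least 2-fold lower in Smarca4.6 on day 5 and 178 on day 6, against 4 on day 4 and 1 on day 7. The 706 genes lower at an unadjusted *p* under 0.05 had a median length of 6095 nucleotides and the 326 higher genes one of 1620, where the median of all tested was 3301. Without day 5 these medians were 4050 for the 381 lower and 2323 for the 207 higher genes. With the median of each class taken out of the day's difference, an alternative chosen after seeing the data, 121, 816, 777 and 148 genes were past 2-fold on days 4 to 7. On day 6 these were 245 higher and 532 lower, against 132 and 1314 as deposited. Taking out class medians also centres each day, and centring alone gave 352 and 614 on day 6, so the shift in this split is not one of length alone. In the Smarcc1 pair the median difference of the 1303 longest minus that of the 1303 shortest transcripts was 0.02, 1.25, 1.42 and 0.44, against -0.27, -1.26, -0.83 and 0.29 in the Smarca4 pair. The days of the largest slopes were thus shared by both pairs. What sets this slope was not tested.

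**Figure D3:**
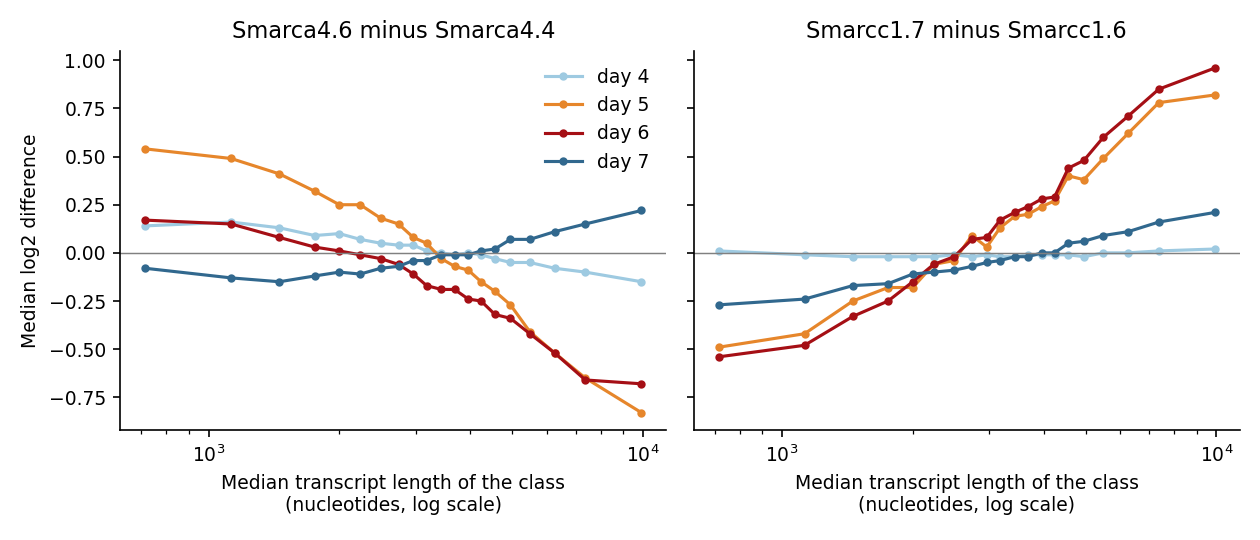
Median log2 difference between hairpins against transcript length, by day. Each point is 1 of 20 classes of 651 or 652 genes, placed at its median transcript length in nucleotides on a log axis; the y axis is Smarca4.6 minus Smarca4.4 (left) or Smarcc1.7 minus Smarcc1.6 (right). The lines of days 5 and 6 reach -0.83 and -0.68 in the longest class on the left and rise with length on the right.

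Whether the differences between hairpins follow residual *Smarca4* could be described over only 4 days. The days on which *Smarca4* differed, days 5 and 6, were those with more genes past 2-fold, and on days 4 and 7 *Smarca4* was level and few genes were. On day 5, however, *Smarca4* differed no more than genes of its own length class, and in the Smarcc1 pair, where it was not targeted, it was also level on days 4 and 7 and apart on days 5 and 6. The log2 level of *Smarca4* was also put in place of the hairpin in limma, with day still as a block. The same-day difference in *Smarca4* was 0.17, -0.45, -1.36 and 0.05 on days 4 to 7. That fit thus rests mainly on the 1 pair of libraries of day 6 and cannot show a relation over days. In it 0 of 13259 genes passed the threshold and 2651 had an unadjusted *p* under 0.05. Of these, 2247 went up with *Smarca4*, with a median transcript length of 5311 nucleotides, and 404 went down, with one of 1985. The level of *Smarca4* and the length of a transcript thus moved together in these libraries, and their parts could not be separated. Set beside Nons, which is shared by both comparisons, 368, 775, 1912 and 1000 genes were past 2-fold in Smarca4.4 on days 4 to 7, and 317, 1982, 1032 and 1191 in Smarca4.6. On day 6 the hairpin with more residual *Smarca4* was thus the farther from Nons by this count, and it was also the one whose long transcripts stood higher than in Nons, by 0.90 for the longest against the shortest, where Smarca4.6 stood at 0.07. On day 5 the order was the other way round, with slopes of 0.34 in Smarca4.4 and -0.86 in Smarca4.6.

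The genes with the steadiest differences are named below, 12 in each direction by smallest unadjusted *p* among those of 1 direction on all 4 days, and all of them missed the threshold in limma (adjusted *p* = 0.615 for each). Among those higher in Smarca4.6, 2 belong to ribosomal proteins. *Rps27*, of the small ribosomal subunit, held 553, 781, 1034 and 793 rpm in Smarca4.4 on days 4 to 7 and 944, 1259, 1611 and 923 rpm in Smarca4.6. Its mean log2 difference was 0.58 (SE 0.147). *Rpl22l1*, a paralogue of ribosomal protein L22, held 301, 396, 348 and 301 rpm in Smarca4.4 and 507, 628, 657 and 370 rpm in Smarca4.6, 1.58-fold higher on average. *1500012F01Rik* (*Zfas1*), a host of small nucleolar RNAs that overlaps *Znfx1* on the other strand and is uncertain for that reason, was 1.7-fold higher (SE 0.171 on the log2 scale). *2410006H16Rik* was 1.87-fold, *2610528J11Rik* 2.16-fold, *2410004A20Rik*, which overlaps *Gm20509*, 1.96-fold and *E330020D12Rik* 1.82-fold higher. *Stra8*, a retinoic acid response gene of germ cells, held 7.09, 49.8, 31.0 and 32.4 rpm in Smarca4.4 and 10.1, 69.6, 76.0 and 51.4 rpm in Smarca4.6. It was thus higher than in Nons (12.8, 19, 8.84 and 5.06 rpm) on days 5 to 7 under both hairpins. It was higher still on those days under the Smarcc1 hairpins, at 307, 310 and 186 rpm in Smarcc1.6 and 150, 173 and 132 rpm in Smarcc1.7. The others were *Pla1a*, a phospholipase (2.05-fold), *Ephx1*, microsomal epoxide hydrolase (1.87-fold), and *Acp5*, tartrate-resistant acid phosphatase (1.66-fold).

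The largest mean difference of all named genes was in *C230073G13Rik* (chr17:70853767-70875965), 15.4-fold higher in Smarca4.6. It held 0.811, 0.732, 1.32 and 31.3 rpm in Smarca4.4 and 23.0, 39.7, 36.1 and 42.4 rpm in Smarca4.6, so the hairpins were far apart on days 4 to 6 and close on day 7. In Nons it swung just as widely, at 1.06, 28.5, 78.1 and 0.586 rpm. It was the 1 gene that passed the threshold without day 4, without day 7 or after centring each library on its median gene.

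The 12 lower in Smarca4.6 have varied roles. *Shisa6*, of an auxiliary protein of AMPA receptors, held 5.76, 5.12, 8.46 and 1.28 rpm in Smarca4.4 and 3.13, 3.01, 1.08 and 0.178 rpm in Smarca4.6 (mean log2 difference -1.87, SE 0.396). The last value is 3 reads, and the gene overlaps *Gm12296*. *Ncan*, of the brain proteoglycan neurocan, held 4.70, 9.52, 10.2 and 2.97 rpm in Smarca4.4 and 3.19, 7.09, 2.16 and 0.948 rpm in Smarca4.6. Both genes stood above Nons in Smarca4.4 on all 4 days. *Sfmbt2*, a Polycomb group gene that overlaps *Gm13261*, held 135, 93.9, 99.9 and 71.8 rpm in Smarca4.4 and 98.6, 39.2, 36.1 and 57.4 rpm in Smarca4.6. Nons held 48.0, 25.2, 15.2 and 26.2 rpm, below both of these and both Smarcc1 hairpins on each day. *Car2*, a carbonic anhydrase, held 64.5, 42.9, 93.6 and 82.6 rpm in Smarca4.4 and 55.7, 27.2, 34.6 and 44.4 rpm in Smarca4.6. The others were *Itgb8*, an integrin subunit that activates latent TGF-β (2.27-fold lower), *Met*, the hepatocyte growth factor receptor (1.81-fold), and *Sulf1*, a heparan sulfate endosulfatase (1.68-fold). *Spred3*, an inhibitor of Ras signalling, was 1.75-fold and *Spna1*, erythroid α-spectrin, 1.99-fold lower. *Nab2*, a corepressor of EGR factors, was 1.92-fold lower and overlaps 3 other entries, so its reads are uncertain. *Lars2*, the mitochondrial leucyl-tRNA synthetase, and *Gm15564* were 2.12-fold and 2.16-fold lower. Their log2 differences were -0.03 and -0.02 on day 5, and the means without that day were -1.44 and -1.48. Both passed the threshold without day 5 once transcript length was taken out. The reference libraries also varied, with *Lars2* at 698, 2567, 508 and 231 rpm in Nons on days 4 to 7. On day 5 it held 415 rpm in Smarcc1.6 and 3068 rpm in Smarcc1.7. *Gm15564* overlaps *Parp9* and *Kpna1*. *Lars2* was 5.19 to 5.68 times *Gm15564* in each of the 8 libraries, so reads of the 2 entries may not be told apart. Transcript length was marked among the named genes as well. All 11 of the 12 higher genes with a known length were shorter than the median of genes tested, and 9 of the 12 lower genes were longer. With length taken out, mean differences were 0.39 to 0.97 for those 11 and -1.55 to -0.54 for the 12.

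**Figure D4:**
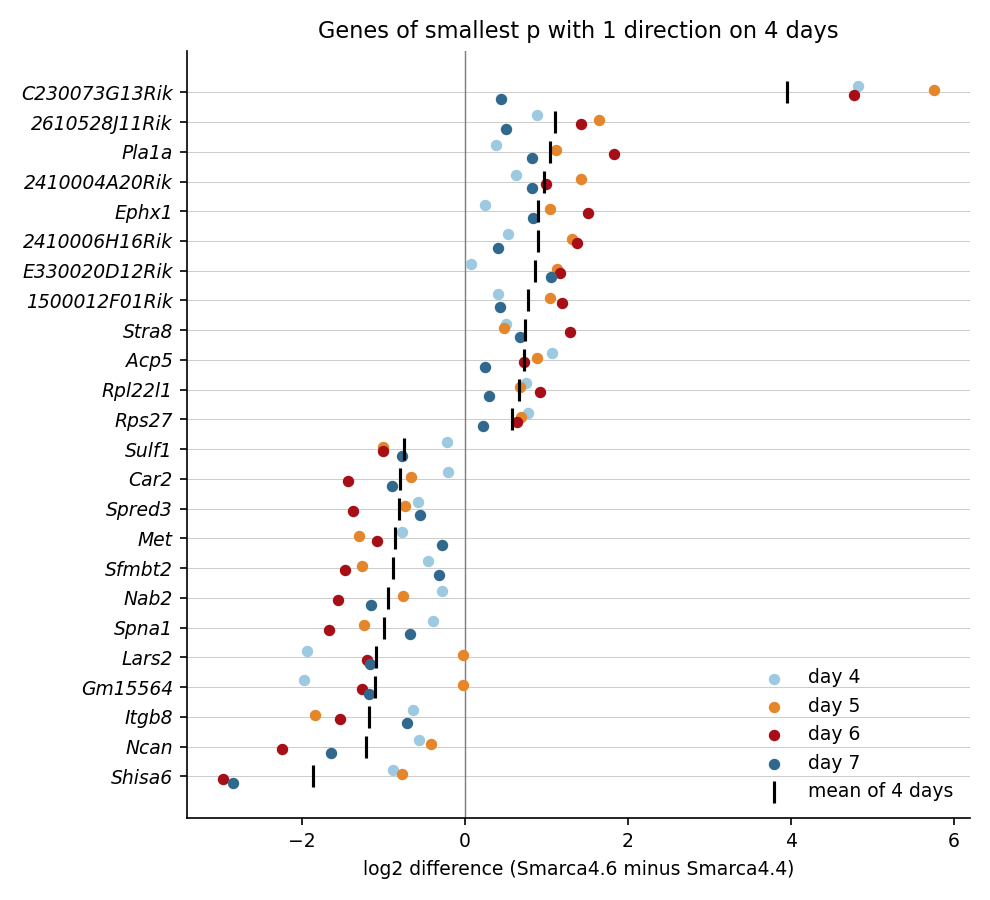
Log2 difference, Smarca4.6 minus Smarca4.4, of the 24 named genes on each day (coloured points, 1 pair of libraries each) and the mean of the 4 days (black bar). All points of a gene lie on 1 side of 0 by the rule that chose them; *C230073G13Rik* reaches 5.76 on day 5 and *Lars2* and *Gm15564* lie at -0.03 and -0.02 on that day.

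Genes of pluripotency and of the lineages that differentiating mESCs can enter were read as lists, without a test of a list, and in each of the 17 lists 0 genes passed the threshold. Core pluripotency genes had a median difference of 0.13 over 6 of 6 genes tested (all genes, -0.05) and -0.04 without day 5. On day 5, 5 of the 6 were higher (6712 of 13260 genes tested), 1 of them at least 2-fold (3.19% of genes tested), with a median of 0.24. On day 6, 4 of the 6 were lower (8296 of 13260 genes tested), with a median of -0.14. With transcript length taken out the median was 0.02 over days, -0.01 on day 5 and -0.05 on day 6. *Pou5f1*, the Oct4 gene, held 1171, 936, 357 and 131 rpm in Smarca4.4 and 1501, 1143, 459 and 142 rpm in Smarca4.6, so it was lower on each later day under both hairpins. It overlaps *Gm19553*. *Lin28a*, an RNA-binding regulator of let-7, held 616, 471, 583 and 421 rpm and 534, 402, 488 and 413 rpm. Of 13 of 14 naive pluripotency genes tested, the median was 0.07 (-0.04 without day 5) and 3 were higher at an unadjusted *p* under 0.05 (326 of 13260 genes tested). On day 6, 8 of the 13 were lower (8296 of 13260 genes tested), with a median of -0.04, which turned to 0.27 with length taken out. The 3 include *Dppa3* (mean log2 difference 0.57) and *Dppa5a* (0.54), whose transcripts are short, and with length taken out the values were 0.38 and 0.35. Formative and primed epiblast genes mark the state that follows the naive one, and 0 of the 11 tested passed. The median of 11 of 12 genes tested was -0.25 over days and -0.89 on day 6, where 10 of the 11 were lower (8296 of 13260 genes tested) and the median of all genes was -0.17. With length taken out the day 6 median was -0.72. *Fgf5*, a growth factor of the primed epiblast, held 11.3, 35.9, 31.8 and 14.7 rpm in Smarca4.4 and 9.89, 26.9, 11.9 and 7.17 rpm in Smarca4.6. *Sall2*, a zinc finger gene, held 25.2, 51.2, 53.2 and 22.9 rpm and 20.7, 37.7, 16.8 and 19.6 rpm, so its difference was marked on day 6. On days 5 and 7 the median of the list was -0.06, with 6 of the 11 lower (0.07 on day 5 with length taken out). Of 13260 genes tested, 6548 and 6918 were lower on those days. On day 4 the list had a median of -0.16, with 8 of the 11 lower (6384 of 13260 genes tested). On all 4 days alike, 1 gene of the list was higher and 3 were lower (871 and 1148 of 13260 genes tested). At an unadjusted *p* under 0.05 in limma, 0 were higher and 3 lower (326 and 706 of 13260 genes tested).

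Neural genes had the lowest median of the 17 lists, -0.58 over 7 of 12 genes tested and -0.53 without day 5, with 5 of the 7 lower at an unadjusted *p* under 0.05 (706 of 13260 genes tested). On day 6 the median was -1.11 and 4 of the 7 were at least 2-fold lower (9.91% of genes tested), and on days 4, 5 and 7 it was -0.18, -0.17 and -0.20. Their transcripts are long, with a median of 4832 nucleotides, and with length taken out the median over days was -0.33 and that of day 6 was -0.43. *Sox1*, of the early neural plate, held 6.91, 10.4, 29.9 and 8.14 rpm in Smarca4.4 and 3.79, 9.21, 7.56 and 5.10 rpm in Smarca4.6. Nons held 3.71, 2.84, 1.34 and 0.533 rpm, so *Sox1* stood above Nons under both hairpins and farthest in Smarca4.4 of day 6. It stood above Nons on each day under the Smarcc1 hairpins too, at 13.4 rpm in Smarcc1.6 and 16.6 rpm in Smarcc1.7 on day 6. *Sox11*, of neural progenitors, was 1.54-fold lower on average. Extraembryonic endoderm genes (7 of 15 tested) had a median of -0.37 (-0.21 without day 5), and -0.69 on day 6, when all 7 were lower (8296 of 13260 genes tested). *Col4a1*, a basement membrane collagen that overlaps *Col4a2*, held 28.8 rpm in Smarca4.4 and 8.13 rpm in Smarca4.6 on day 6, and *Dab2*, an endocytic adaptor, 18.8 and 9.91 rpm. With length taken out the day 6 median of this list was -0.22. Fibroblast and mesenchyme genes (9 of 14 tested) had a median of -0.35, and with length taken out -0.16. On day 6 the list was split, 5 lower and 4 higher (8296 of 13260 genes tested were lower). In it *Col1a1*, a fibrillar collagen, held 9.50 and 2.54 rpm on day 6 and 24.1 and 15.9 rpm on day 7. Whether cells of such lineages were fewer or held less of these RNAs cannot be told apart in bulk libraries.

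The 3 of 12 primitive streak and mesendoderm genes that were tested had a median of -0.20, the 6 of 13 cardiac and lateral mesoderm genes -0.05, the 6 of 8 trophoblast genes 0.15 and the 5 of 11 blood and endothelium genes -0.02. Without day 5 the medians of the streak and cardiac lists were -0.30 and -0.17, the trophoblast median was -0.01 and the blood and endothelium median 0.05. In the last of these, *Pecam1*, an endothelial adhesion gene also found in mESCs, held 8.52 rpm in Smarca4.4 and 13.0 rpm in Smarca4.6 on day 6. Genes that respond to RNA hairpins or to their processing were read because they can differ between shRNAs. Interferon response genes (6 of 14 tested) had a median of 0.26. *Bst2*, an interferon-induced membrane protein, was 1.34-fold higher (log2 difference 0.42, and 0.24 without day 5) and *Ddx58*, the RIG-I gene, 1.14-fold lower in Smarca4.6. The 8 RNAi pathway genes had a median of -0.38 (-0.26 without day 5), with -0.61 on day 5 and -0.59 on day 6, and 8 of 8 were lower on days 4 and 6, where 6384 and 8296 of 13260 genes tested were. On day 7, 5 of 8 were higher (6342 of 13260 genes tested), with a median of 0.13. On day 5, 6 of 8 were lower (6548 of 13260 genes tested). On that day 2 genes were at least 2-fold lower (6.87% of genes tested) and 1 at least 2-fold higher (3.19%). Their transcripts had the longest median of the 17 lists, 6154 nucleotides, and with length taken out the median was -0.10. *Dgcr8*, the partner of Drosha, was 1.36-fold (log2 difference -0.44, and -0.24 without day 5) and *Xpo5*, the exporter of hairpin precursors, 1.29-fold lower. Targets of p53 had a median of -0.03 (11 of 12 tested; -0.10 without day 5), ATF4 and stress genes 0.07 (8 of 8), cell cycle genes -0.16 (10 of 10) and glycolysis and hypoxia genes 0.04 (10 of 10, and -0.01 without day 5). The last of these went in opposite directions by day. Its median was 0.28 on day 4, with 8 of 10 higher (6876 of 13260 genes tested). On day 7 it was -0.47, with 9 of 10 lower (6918 of 13260 genes tested). The genes named from these 4 lists were *Sesn2*, a p53 target (1.29-fold lower), *Ddit3*, the CHOP gene of the stress response (1.49-fold higher), *Ccnd1*, cyclin D1 (1.34-fold lower), and *Hk2*, a hexokinase (1.62-fold lower). *Hk2* held 178 rpm in Smarca4.4 and 52.6 rpm in Smarca4.6 on day 6, and 112 and 92.2 rpm on day 7.

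**Figure D5:**
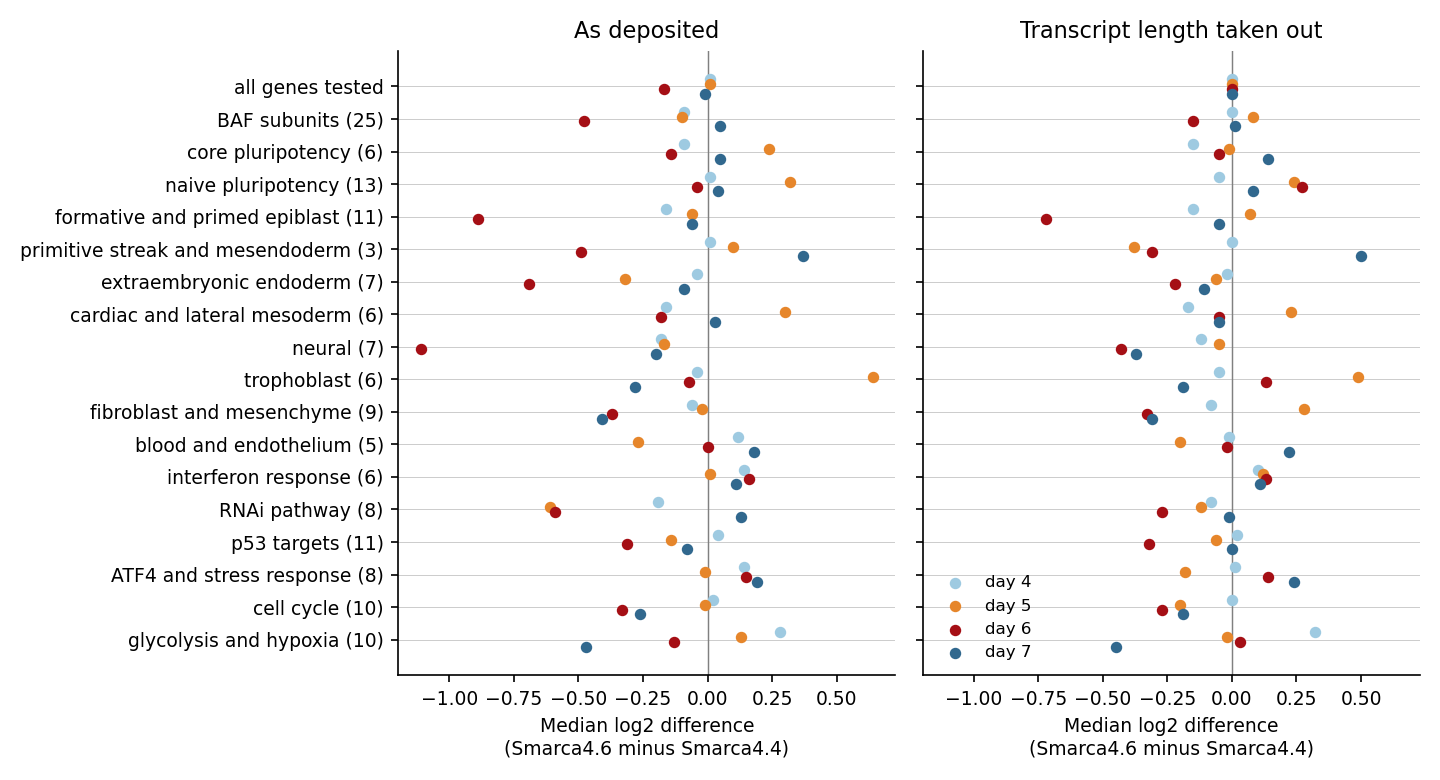
Median log2 difference, Smarca4.6 minus Smarca4.4, of each gene list by day, as deposited (left) and with transcript length taken out (right). The number of genes tested is given beside each list, and the top line is the median of all genes. On day 6 the neural list lies at -1.11 and the formative and primed epiblast list at -0.89 on the left, and at -0.43 and -0.72 on the right.

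The labelled cell type was checked with marker genes. All 8 mESC markers passed the filter, and their summed level was 2917, 2140, 1605 and 1022 rpm in Smarca4.4 and 3121, 2605, 1544 and 1031 rpm in Smarca4.6 on days 4 to 7, with *Pou5f1* the most abundant. Markers of other cells had lower sums. The 5 neural markers summed to 80.6, 64.0, 92.7 and 39.6 rpm in Smarca4.4 and 75.2, 58.2, 42.7 and 28.4 rpm in Smarca4.6, led by *Tubb3*. The 8 fibroblast and mesenchyme markers, led by *Col1a1*, summed to 7.85, 12.6, 17.0 and 45.0 rpm and 10.5, 11.3, 9.47 and 28.9 rpm, and *Col3a1* and *Lum* were under 1 rpm in all 8 libraries. The 7 extraembryonic endoderm markers, led by *Dab2*, summed to 3.71, 8.64, 22.6 and 33.9 rpm and 2.75, 8.32, 12.6 and 32.6 rpm, with *Sox17*, *Sox7*, *Afp* and *Ttr* under 1 rpm in all 8. On day 6 the sums of these 3 lists were higher in Smarca4.4, and the cardiac sum was too (10.6 against 7.62 rpm). So was the mESC sum (1605 against 1544 rpm), and 8296 of 13260 genes tested were lower in Smarca4.6 on that day. Transcript length was not taken out of these sums. The sums of blood and endothelium (9.56 against 14.9 rpm) and of trophoblast (54.9 against 56.9 rpm) were higher in Smarca4.6 on that day. The 6 cardiac and lateral mesoderm markers summed to 2.47 to 22.6 rpm over the 8 libraries (most abundant *Hand1*; *Hand2* and *Tnnt2* under 1 rpm in all). The 6 blood and endothelium markers summed to 7.46 to 57.9 rpm (*Pecam1*; *Cdh5* and *Hbb-bh1* under 1 rpm) and the 5 trophoblast markers to 24.3 to 167 rpm (*Krt7*; *Cdx2* and *Elf5* under 1 rpm). The part of other cells in the differences between hairpins was not tested.

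Distances between whole libraries were compared with those of the Smarcc1 pair. The Euclidean distance over all 25965 entries between Smarca4.4 and Smarca4.6 was 87.9, 200, 108 and 88.1 on days 4 to 7, 121 ± 53.6 on average (SD, n = 4 days) and 94.8 ± 11.7 without day 5. The Smarcc1 hairpins lay 79.1, 126, 122 and 90.3 apart. The mean excess of the Smarca4 pair was 16.9 (exact sign-flip permutation test over 4 days, two-sided, *p* = 0.75), a test that cannot reach 0.05 with 4 days. By day the excess was 8.81, 74.5, -13.4 and -2.21, so its mean was positive through day 5 and negative without it. The sign of the mean excess also turned under the other settings over 4 days. It was -1.52 over the genes tested, -2.78 after thinning and -0.173 with 1 lowest value for all libraries. Depth decided the value of day 5, since 62.9% of its squared distance came from entries without a read in either library, whose values differ only through the lowest value of each library. With all libraries thinned to 6829596 reads the distances were 80.5, 111, 106 and 80.4, against 78.1, 121, 111 and 79.3 in the Smarcc1 pair. Over the 13260 genes tested they were 35.0, 76.1, 70.7 and 36.9, against 30.0, 86.3, 75.9 and 32.6 in the Smarcc1 pair. On these genes days 5 and 6 again stood apart from days 4 and 7 in both pairs.

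The stage of each library was read as the nearest point on straight lines that join the Nons libraries in order of day, which asks whether 1 hairpin ran ahead of the other. Smarca4.4 was placed at 4.13, 5.33, 6.40 and 6.79 days and Smarca4.6 at 4.22, 4.75, 5.73 and 6.76 days. The hairpins were thus level on days 4 and 7, while on days 5 and 6 Smarca4.6 was placed 0.58 and 0.67 days before Smarca4.4. The mean difference was -0.299 days (SD 0.38, n = 4 days, exact sign-flip permutation test, two-sided, *p* = 0.375). Without day 5 it was -0.205 days, over the genes tested -0.0488 days and with 1 added to rpm -0.0314 days. The value of day 5 moved both with the treatment of entries that carry the lowest value of a library and with the path. On the path of the Smarcc1 hairpins it was -0.10 days. With 1 lowest value for all libraries it was 0.05 days, and it was 0.43 days over the genes tested and 0.02 days when transcript length was also taken out of these. The value of day 6 was -0.61 to -0.71 days under the same and the other alternatives on the Nons path, and -0.42 days on the path of the Smarcc1 hairpins. Genes that change with stage were then chosen in the Nons and Smarcc1 libraries alone, as the 500 rising and the 500 falling genes of smallest *p*. The rising genes had a median difference of 0.11, 0.21, -0.17 and -0.10 on days 4 to 7 and the falling genes one of 0.00, -0.15, -0.19 and -0.06. On day 6, when the median of all genes was -0.17, 329 of the 500 rising and 328 of the 500 falling genes were lower in Smarca4.6. With length taken out the medians of day 6 were -0.05 and -0.06. On day 5 the rising genes were the higher ones, at 0.19 with length taken out, and the falling genes the lower, at -0.21.

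Genes with a match to the seed of either guide in their 3′ UTR were described last. A match of the 7 bases opposite the seed shown above was found in a 3′ UTR of 1446 of 12355 genes for Smarca4.4 (11.7%) and of 1192 for Smarca4.6 (9.65%), and the seed of Nons, which is in neither library, gave 1305 (10.6%). Genes with a match have longer transcripts, with medians of 4522, 4799 and 4790 nucleotides against 3262 to 3270 without one. On day 5 their median difference was -0.29, -0.39 and -0.29 for the 3 seeds, against 0.05 for genes without the match, so the Nons seed gave the same value as that of Smarca4.4. With length taken out, the mean over days of the median was 0.01 for Smarca4.4 seed matches, 0.00 for Smarca4.6 and 0.02 for Nons, against -0.01 for genes without the match in each case. These means join days of opposite sign. On day 5 the medians were -0.08, -0.10 and -0.07 (0.02 without the match), and on day 6 they were 0.11, 0.10 and 0.13 (-0.01 without). The part of seed matches in the differences between hairpins was not tested. Apart from *Smarca4*, no gene had a site within 2 mismatches of either guide and 1 gene for each guide had one at 3. At up to 4 mismatches, 11 tested genes for Smarca4.4 had differences of -0.68 to -0.01 and a median of -0.23, where the median of all genes tested was -0.05. On this scale a gene lower under Smarca4.4 has a positive difference. Transcript length was not taken out of these values, and they have no test. Of 3 tested genes for Smarca4.6, 2 were lower and 1 higher in Smarca4.6 (-0.51 to 0.13).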

How the data were processed

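RNA-seq of 20 male mESC libraries was analysed, 8 of them with a *Smarca4* hairpin, on Illumina NextSeq 500 with single-end reads of 75 bp. The authors trimmed reads with Trim Galore, and mapped these by tophat or hisat2 on mm10. Per the labels the tools were bcl2fastq and HISAT2. Whether strand was used in counting is not given in the sources used here. The deposited values are log2 rpm, reads scaled to library depth, from the RNA-seq quantitation pipeline of SeqMonk, in which an entry without reads holds 0.9 of a read. On that step 100% of values below 1000 reads were whole (tolerance 0.01), which gave reads and totals, 6829596 to 23551166 in the 8 libraries.

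Smarca4.6 minus Smarca4.4 was fitted with limma 3.58.1 in R 4.3.3 (lmFit, eBayes with trend) on the 13260 of 25965 entries whose log2 values averaged 0 or more, with day as a block and Benjamini-Hochberg adjusted *p*-values. The pairing is the day in the titles, and deviations of same-day libraries correlated at 0.94, 0.55, 0.65 and 0.85 across genes on days 4 to 7. Distances and stage used Python 3.11.15 and exact sign-flip tests. Transcript lengths, hairpin sites and seed matches came from GENCODE M21 (mm10) and hairpin sequences from the study's oligonucleotide list. The length of a gene is that of its longest transcript, and its effect was taken out as the median difference of 20 length classes, per day. Named genes are *Smarca4*, *Smarca2* and *Smarcc1*, the 12 highest and 12 lowest that pass the threshold with 1 direction on 4 days, filled by smallest unadjusted *p*, and up to 2 genes of each list by largest difference with 1 direction on 4 days. The members and lists were chosen with earlier results of these data known. Alternatives were other days, filters, scalings, depths, models and limma-voom. Taking out transcript length, and the alternatives for counts past 2-fold, were chosen after seeing the data. The procedures were tested on simulated data.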

Additional observations from a re-analysis of the deposited data

Results flagged for a closer look

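In 6 of 55 sets of values looked at, 1 value lay far from the others, by a rule that flags about 1 in 20 independent sets by chance. These sets share libraries and days, and many of the genes were chosen by their differences. The 6 can therefore not be set against that rate. The Smarca4.4 library of day 5 had 6829596 reads, against 15740712 to 23551166 in the other 7 *Smarca4* libraries, and 9660 entries without a read, against 8122 to 8817. The difference between hairpins was far from that of the other days for 4 named genes. In *E330020D12Rik* it was 0.08 on day 4 and 1.06 to 1.17 on days 5 to 7. On day 6 it was -1.66 in *Sall2* (-0.44 to -0.23 on the other days), -1.04 in *Sesn2* (-0.17 to -0.11) and -1.76 in *Hk2* (-0.43 to -0.28). The cause of these was not tested.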

How the results depend on the processing

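The count of genes past the threshold, 0 in limma, was 0 to 1 with each day left out in turn, 1 after centring on the median gene and 136 with no filter on low values (16 higher, 120 lower). It was 2 with transcript length taken out without day 5 (*Lars2* and *Gm15564*). With no replicate block, that is with day left out of the model and the pairing unused, it was 0, with 33 genes at an unadjusted *p* under 0.05. The other alternatives for this count gave 0. The difference in *Smarca4* was -0.59 to -0.08 with a day left out and -0.39 to -0.15 with other scalings, depths, limma-voom or transcript length taken out. Changes of filter, block or spread leave this value as it is. The mean distance of 121 was 54.7 over the genes tested alone and 48.5 with 1 added to rpm, as fewer or compressed values enter. Over the genes tested with transcript length also taken out it was 47.8. The mean stage difference of -0.299 days was negative under all alternatives but as small as -0.0488 over the genes tested and -0.0314 with 1 added to rpm, and -0.427 to -0.176 days with a day left out. Genes past 2-fold on days 4, 5, 6 and 7 (144, 1334, 1446 and 159) numbered 13, 798, 930 and 17 with 1 added to rpm, which compresses low values. After thinning, days 4 and 7 had 494 and 393, and with transcript length taken out days 5 and 6 had 816 and 777. Centring moved the split of day 6 to 352 higher and 614 lower, and quantile normalization to 367 and 684. The *Smarca2* difference of -0.14 turned to 0.10 after thinning and to 0.11 and 0.12 with transcript length taken out, with and without day 5. The cause was not tested. All other named genes kept their direction, and 29 values of 24 genes passed the threshold under an alternative. Most of these were with no filter, the fit that took the spread from all entries together. With 1 library per hairpin and day, differences of single days have no error of their own.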

Other observations

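Ribosomal protein genes, a list chosen after seeing the data, had a positive median difference, and 0 of 86 passed the threshold in limma. The median was 0.34 (0.24 without day 5), and 41 were higher and 0 lower at an unadjusted *p* under 0.05, where 326 and 706 of all 13260 genes tested were. Of all 13260 genes tested, 6876, 6712, 4964 and 6342 were higher on days 4 to 7. On days 4, 5 and 6, 81, 86 and 85 of the 86 were higher, with medians of 0.21, 0.65 and 0.53, and on day 7 it was 43 of 86 with a median of 0.00. Their transcripts are short, with a median of 1054 nucleotides, and with transcript length taken out the median over days was 0.19 and those of days 4 to 7 were 0.09, 0.18, 0.38 and 0.10. The 13 genes of the replication-dependent histone clusters, also chosen after seeing the data and short at a median of 836 nucleotides, had a median of -0.13 (-0.28 without day 5), with 0 past the threshold. On day 5, 10 of 13 were higher, with a median of 0.32, and on day 7, 12 of 13 were lower, where 6918 of 13260 genes tested were. With transcript length taken out the median over days was -0.23 and those of days 4 to 7 were -0.26, -0.10, -0.42 and -0.43, so that of day 5 turned.

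Base composition ran with the differences as well, but not in 1 direction. Across genes, the correlation of the difference with the GC content of the longest transcript was -0.07, 0.44, -0.29 and -0.18 on days 4 to 7, and -0.14, 0.35, -0.43 and -0.11 with transcript length taken out. Long transcripts were lower in Smarca4.6 on both day 5 and day 6, whereas GC-rich transcripts were higher on day 5 and lower on day 6.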
